A study of Mus musculus with 10 samples.

Results

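The genes described here are 8 cholesterol synthesis genes, Hmgcs1, Idi1, Fdft1, Sqle, Lss, Cyp51, Insig1 and Srebf2, out of 35705 genes to which the deposited transcript table could be summed. They were taken by symbol, with no use of their measured values, and all 8 were among the 13841 genes whose mean level reached 1 TPM, a unit that divides a fixed total among all transcripts of a library. RNA was sequenced from articular cartilage, taken as caps of the medial knee, of 10 mice with 1 library each, and the labels give the cell type as chondrocyte. Of these, 5 were wild-type controls and 5 were Mir324-null, that is, without the gene of the microRNA miR-324. No mouse received a treatment, and neither the age, sex and strain of the mice nor the way the null allele was made is in the labels. The study was concerned with miR-324 in bone-forming and bone-resorbing cells.

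Cells make cholesterol from acetyl-CoA. HMG-CoA synthase (Hmgcs1) makes HMG-CoA early in the pathway, and isopentenyl diphosphate isomerase (Idi1) interconverts the pathway's isoprenoid building blocks. Squalene synthase (Fdft1) and squalene epoxidase (Sqle) make squalene and oxidise it, lanosterol synthase (Lss) closes the sterol rings, and the cytochrome P450 enzyme Cyp51 removes a methyl group from lanosterol. The transcription factor SREBP2, encoded by Srebf2, switches these genes on when sterols run low, while Insig1, itself a target of that factor, holds it in the endoplasmic reticulum when sterols are plentiful. In growing cartilage, sterols are also needed for Hedgehog signalling.

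The libraries hold several tissues, which bears on every value below. The share of TPM in haemoglobin genes ran from 11.2% to 26.1%, and because TPM has a fixed total, a larger share for them lowers every other gene. The share was smallest in wild-type replicate 1 and largest in Mir324-null replicate 5. TPM keeps no record of sequencing depth, which is therefore unknown. Of 9 cartilage markers none was at 0 in every library, and the aggrecan gene Acan was at 60.2 TPM or more in each, but the cartilage collagen gene Col9a1 had group means of only 0.568 TPM (wild-type) and 0.453 TPM (null). Matn3, another of the 9, was lower still, with group means of 0.156 and 0.275 TPM. The summed TPM of the 9 ran from 1929 to 6145 in wild-type and from 1627 to 2917 in null mice. Most of that sum was the single gene Prg4, at 1564 to 5075 TPM in wild-type and 1335 to 2319 TPM in null mice. The 10 osteoblast and osteocyte markers summed to between 6225 and 14721 TPM and between 3525 and 7315 TPM. In such bulk tissue, fewer cells of a type and less RNA per cell cannot be told apart.

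Promoter sequences are shown first because SREBP2 acts at sterol regulatory elements close to sites of the factor NF-Y. RefSeq (GRCm38.p6) gave a window for 6 of the 8 genes, from 250 bases before to 50 bases after the start site. These windows were searched on both strands for TCACNCCAC, the core of a sterol regulatory element, for the NF-Y box ATTGG and for the GC box GGGCGG. The sterol element core was found in 1 of the 6, that of Hmgcs1, and in 1.24% of all 32851 windows. Only exact matches were counted, so an element that differs from this string would be missed. The Srebf2 stretch below holds a string, left unmarked, that differs from the core only in its last base. An NF-Y box was present in 6 of 6, against 37.4% of all windows, and a GC box in 6 of 6, against 35.7%. None of the 26 matches in the members' windows overlapped another. Below are the 250 bases before the RefSeq start of Hmgcs1 (chr13:119690101-119690350, plus strand) and 60 bases around the NF-Y box of Lss (chr10:76531515-76531574, plus strand), Insig1 (chr5:28071168-28071227, plus strand) and Srebf2 (chr15:82147106-82147165, plus strand). Capitals mark the sterol element core and the NF-Y boxes.
Hmgcs1: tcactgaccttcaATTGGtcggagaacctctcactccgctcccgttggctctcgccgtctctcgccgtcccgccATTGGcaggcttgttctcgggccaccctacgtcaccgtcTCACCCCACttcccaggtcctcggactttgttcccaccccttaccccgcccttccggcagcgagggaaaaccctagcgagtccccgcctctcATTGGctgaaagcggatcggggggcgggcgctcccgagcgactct
Lss: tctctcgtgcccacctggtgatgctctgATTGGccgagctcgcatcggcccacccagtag
Insig1: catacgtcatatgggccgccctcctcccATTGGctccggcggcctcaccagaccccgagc
Srebf2: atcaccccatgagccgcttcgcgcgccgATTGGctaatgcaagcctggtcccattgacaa

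In the Hmgcs1 window the sterol element core begins at base -137 and NF-Y boxes begin at -237, -176 and -45, counted back from the start site, with another at base 11 of the transcript. The NF-Y box begins at -62 in Lss, at -216 in Insig1 and at -135 in Srebf2. In Idi1 such boxes begin at -45 and -14, and Cyp51 has one on the opposite strand at -29. A match is only a string of letters, and no binding was measured here.

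The mature strands of the deleted microRNA are shown with their seeds, bases 2 to 8, in capitals, since a messenger RNA with a matching site could be a direct target.
mmu-miR-324-5p: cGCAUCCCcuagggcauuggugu
mmu-miR-324-3p: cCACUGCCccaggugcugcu
For each gene the longest 3′ UTR that GENCODE M21 annotates was searched. The site GGGATGC for the 5p strand was in 0 of the 8 genes and in 8.5% of 12595 tested genes. The site GGCAGTG for the 3p strand was in 2 of the 8 and in 15.4% of those genes. The 2 were Hmgcs1, at chr13:119707186-119707192 on the plus strand, and Fdft1, at chr14:63146043-63146049 on the minus strand, shown here in the transcript's direction with the site in capitals.
Hmgcs1 site: tggccaggtctccgtGGCAGTGc
Fdft1 site: agggtaaggaaagcaGGCAGTGc
Both protein-coding Fdft1 transcripts carry the site, as do Hmgcs1-201 and Hmgcs1-202. The levels of both genes are given below, and neither passed the test between genotypes.

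The 2 regulators and the first enzyme were the most abundant of the 8. Over all 10 libraries Srebf2 averaged 40.6 ± 7.40 TPM (SD, n = 10), above 79.0% of the genes tested, followed by Insig1 at 17.8 ± 4.25 and Hmgcs1 at 16.1 ± 2.46. Fdft1 averaged 10.1 ± 1.88, Cyp51 7.85 ± 1.32, Sqle 7.54 ± 1.38, Lss 5.28 ± 1.49 and Idi1 2.71 ± 0.824 TPM (SD, n = 10). The median gene tested was at 13.2 TPM, so that all the enzymes after Hmgcs1 lay below it. Srebf2 stood 2.28 times above Insig1, with no overlap between their ranges. Hmgcs1 was above Fdft1, and Lss above Idi1, in 10 of 10 libraries, although the ranges over libraries overlapped. Sqle was above Lss in 8 of 10 libraries, and their difference within a library, 2.26 ± 1.78 TPM (SD, n = 10), was larger than its spread. For the other neighbours the difference was smaller than its spread, at 1.74 ± 3.17 TPM between Insig1 and Hmgcs1, 2.27 ± 2.62 TPM between Fdft1 and Cyp51 and 0.310 ± 1.49 TPM between Cyp51 and Sqle (SD, n = 10). The coefficient of variation over libraries ran from 15.3% for Hmgcs1 to 30.4% for Idi1, where the median gene had 19.5%.

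Part of these levels came from transcripts that are not annotated as protein-coding. For Hmgcs1, Idi1, Sqle, Insig1 and Fdft1 the coding transcripts held between 95.2% and 99.4% of the TPM. They held 80.4% for Srebf2, 79.2% for Cyp51 and 26.3% for Lss. The coding transcripts of Lss had a mean of 1.42 ± 0.365 TPM for wild-type mice, and for null mice of 1.36 ± 0.192 TPM (SD, n = 5). Its 6 other transcripts together were at 4.53 ± 1.29 and 3.25 ± 1.24 TPM (SD, n = 5), and the leading one, the retained-intron transcript Lss-205, ran from 0 in wild-type replicate 2 to 4.01 TPM in wild-type replicate 1. By coding transcripts alone Lss lay below Idi1, which was at 2.15 ± 0.557 TPM in wild-type mice. For Cyp51 the non-coding transcripts ran from 0 TPM in wild-type replicate 1 to 4.78 TPM in wild-type replicate 4. Several of the genes overlap others on the opposite strand, Hmgcs1 with Gm48342, Fdft1 with Ctsb, Cyp51 with Akap9 and Lss with 4930483K19Rik. Idi1 also overlaps Gm48574. Srebf2 overlaps Gm49502 on its own strand over 2110 bases, where strand could not separate the reads. Whether strand was used in quantification is not given in the sources used here, so reads in these overlaps cannot be assigned with certainty.

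**Figure D1:**
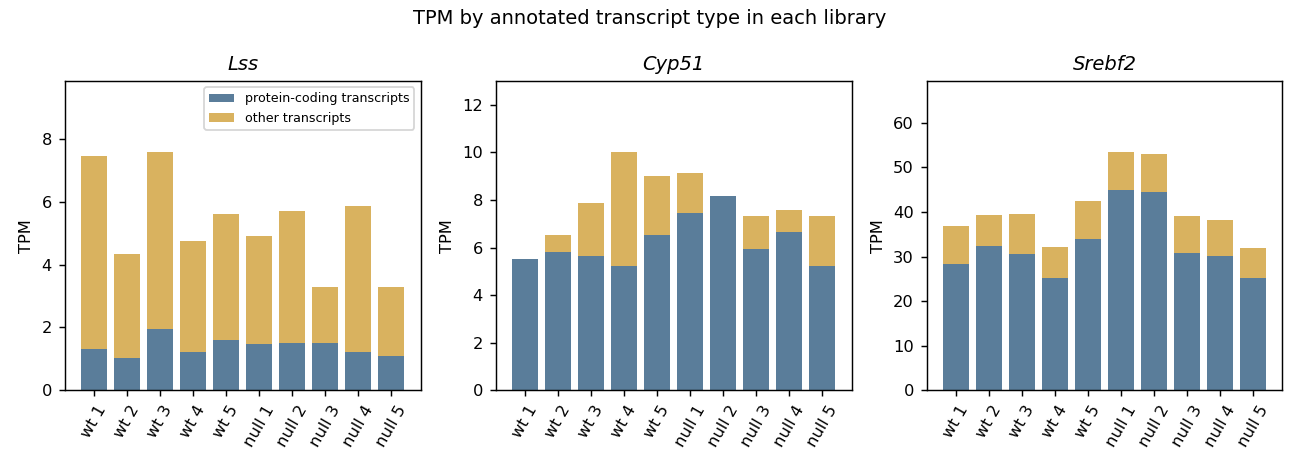
TPM of Lss, Cyp51 and Srebf2 in each library, split into annotated protein-coding transcripts and all other transcripts (stacked bars, 5 wild-type and 5 Mir324-null libraries). The coding part of Lss stays between 1.02 and 1.95 TPM while the other part runs from 1.79 to 6.16 TPM.

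None of the 8 genes differed between genotypes after correction. In limma on log2(TPM + 1), with two-sided tests and Benjamini-Hochberg adjustment over all 13841 genes, 0 of the 8 had an adjusted p under 0.05, and the background was 0% of all genes. The smallest adjusted p among the 8 was 0.421. At an unadjusted p under 0.05 there was 1 member, Idi1, higher in null mice, against 4.28% of all genes in that direction, and 0 members lower, against 7.3%. The background splits into 592 genes higher and 1011 lower with TPM as deposited, 875 and 888 after median ratio scaling, and 884 and 929 after quantile normalization. In 0 of the 8 were the genotypes without overlap, against 1.94% of all genes. Estimates were above 0 for 5 members and below 0 for 3, with a median log2 change of 0.098, where the median of all genes was -0.045. The members' median was 0.15 after median ratio scaling and 0.18 when TPM was rescaled without the haemoglobin genes, and the medians of all genes were then 0.0033 and 0.035. Exact p-values below are from two-sided permutation tests of each gene alone, 5 mice against 5. Each change is on the log2(TPM + 1) scale, null minus wild-type, which understates the change of low genes.

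**Figure D2:**
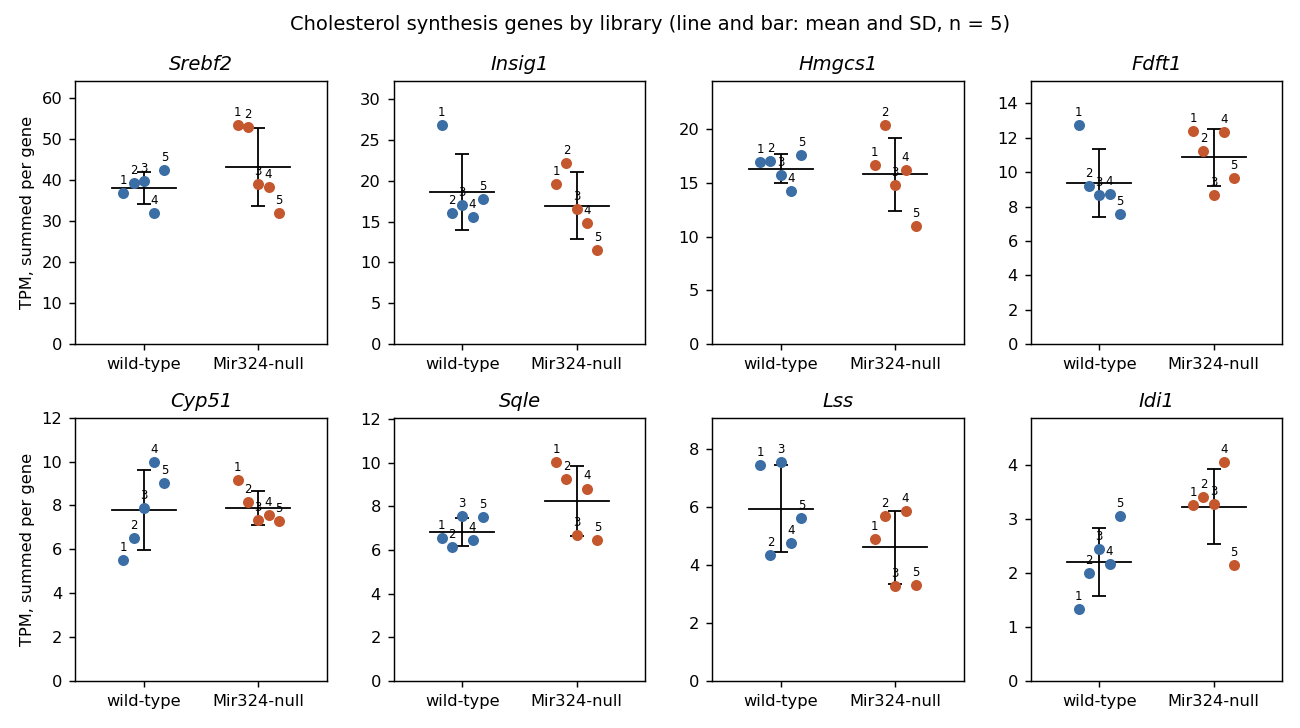
TPM summed per gene for the 8 members in each library (points, labelled with the replicate number), with the mean and SD of each genotype (n = 5). The genotypes overlap in all 8 panels, and Mir324-null replicates 1 and 2 are the highest libraries for Srebf2 and Sqle.

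Gene positions below are those of GENCODE M21 on GRCm38. Of the 2 regulators, Srebf2 (ENSMUSG00000022463, chromosome 15, 82147181 to 82205379) was at 36.8, 39.3, 39.6, 32.04 and 42.5 TPM in wild-type replicates 1 to 5. In the null mice it was at 53.4, 53.0, 39.0, 38.3 and 32.03 TPM. Replicates 1 and 2 of the null mice lay above every wild-type mouse and the other 3 within or just below the wild-type range. The means were 38.0 ± 3.91 and 43.1 ± 9.57 TPM (SD, n = 5), a change of 0.16 (SE 0.145, exact permutation p = 0.349, limma adjusted p = 0.755). It was 0.074 and 0.077 without Mir324-null replicates 1 and 2 in turn, 0.098 without wild-type replicate 4, 0.25 without Mir324-null replicate 5 and 0.25 without haemoglobin genes. The transcript Srebf2-206 was at 12.7 and 11.2 TPM in those same 2 null libraries and between 1.80 and 5.38 TPM in the other 8. An intron of Srebf2 also holds the microRNA gene Mir33, which was not analysed here.

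Insig1 (ENSMUSG00000045294, chromosome 5, 28071363 to 28078662) was at 26.8, 16.0, 17.04, 15.5 and 17.7 TPM in wild-type and at 19.6, 22.2, 16.5, 14.8 and 11.6 TPM in null mice. Wild-type replicate 1 stood above all others and Mir324-null replicate 5 was the lowest. The change of -0.13 (SE 0.186, exact permutation p = 0.532, limma adjusted p = 0.862) was -0.00067 without wild-type replicate 1, -0.013 without Mir324-null replicate 5 and -0.23 without Mir324-null replicate 2.

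Among the enzymes that lead to squalene, Hmgcs1 (ENSMUSG00000093930, chromosome 13, 119690379 to 119708260) was at 16.9, 17, 15.7, 14.2 and 17.6 TPM in wild-type mice. The null values of 16.6, 20.4, 14.8, 16.2 and 10.95 TPM included both the highest and the lowest of the 10 libraries. Its coefficient of variation was 8.20% in wild-type and 21.6% in null mice, and whether the spreads differ was not tested. The change was -0.065 (SE 0.143, exact permutation p = 0.698, limma adjusted p = 0.926), and it was 0.052 without Mir324-null replicate 5, -0.16 without Mir324-null replicate 2 and 0.020 after rescaling without the haemoglobin genes.

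Idi1 (ENSMUSG00000058258, chromosome 13, 8885501 to 8892451) had the largest difference of the 8. It was at 1.33, 2.0, 2.44, 2.16 and 3.05 TPM in wild-type and at 3.26, 3.40, 3.26, 4.05 and 2.14 TPM in null mice. In 4 of 5 null mice it exceeded every wild-type mouse, while Mir324-null replicate 5 lay inside the wild-type range. The means were 2.20 ± 0.626 and 3.22 ± 0.689 TPM (SD, n = 5), a change of 0.41 with a 95% confidence interval of 0.018 to 0.80 (limma adjusted p = 0.421). An exact two-sided permutation test of the same difference gave p = 0.0556, where 0.00794 is the smallest this design allows. Its unadjusted limma p was under 0.05 in 9 of 17 alternatives, and the adjusted p ranged from 0.296 to 0.685 over them and the reported fit. Its close relative Idi2 averaged 0.0211 TPM in wild-type mice.

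For Fdft1 (ENSMUSG00000021273, chromosome 14, 63145150 to 63179578) the wild-type values were 12.8, 9.19, 8.65, 8.72 and 7.59 TPM and the null values 12.4, 11.2, 8.69, 12.3 and 9.64 TPM. Wild-type replicate 1 was the highest of all 10, and the other 4 wild-type mice lay below 4 of the 5 null mice. The change was 0.20 (SE 0.147, exact permutation p = 0.214, limma adjusted p = 0.664), and 0.31 without wild-type replicate 1 (limma adjusted p = 0.558).

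Sqle (ENSMUSG00000022351, chromosome 15, 59315077 to 59331192) acts next. It was at 6.54, 6.11, 7.56, 6.44 and 7.497 TPM in wild-type and at 10.05, 9.24, 6.68, 8.82 and 6.45 TPM in null mice. In 3 of 5 null mice the level was above every wild-type mouse, and in the other 2 it lay within the wild-type range. The change was 0.23 (SE 0.137, exact permutation p = 0.103, limma adjusted p = 0.577). When the haemoglobin genes were left out of the TPM total, its change was 0.31 (limma adjusted p = 0.334), with an unadjusted p under 0.05.

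Lss (ENSMUSG00000033105, chromosome 10, 76531588 to 76557138) was at 7.46, 4.34, 7.57, 4.75 and 5.61 TPM in wild-type and at 4.90, 5.69, 3.29, 5.88 and 3.30 TPM in null mice. All 5 null mice were below the wild-type mean, and 2 of them were below every wild-type mouse. The change of -0.31 (SE 0.195, exact permutation p = 0.182, limma adjusted p = 0.592) was the lowest of the 8. By coding transcripts alone it was -0.030 (SE 0.142, limma adjusted p = 0.966).

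Cyp51 (ENSMUSG00000001467, chromosome 5, 4081145 to 4104746) was at 5.53, 6.52, 7.87, 10.0 and 9.03 TPM in wild-type and at 9.15, 8.16, 7.35, 7.56 and 7.31 TPM in null mice. The null values lay inside the wild-type range. The change was 0.040 (SE 0.149, exact permutation p = 0.786, limma adjusted p = 0.959), 0.18 by coding transcripts alone and -0.061 without wild-type replicate 1.

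**Figure D3:**
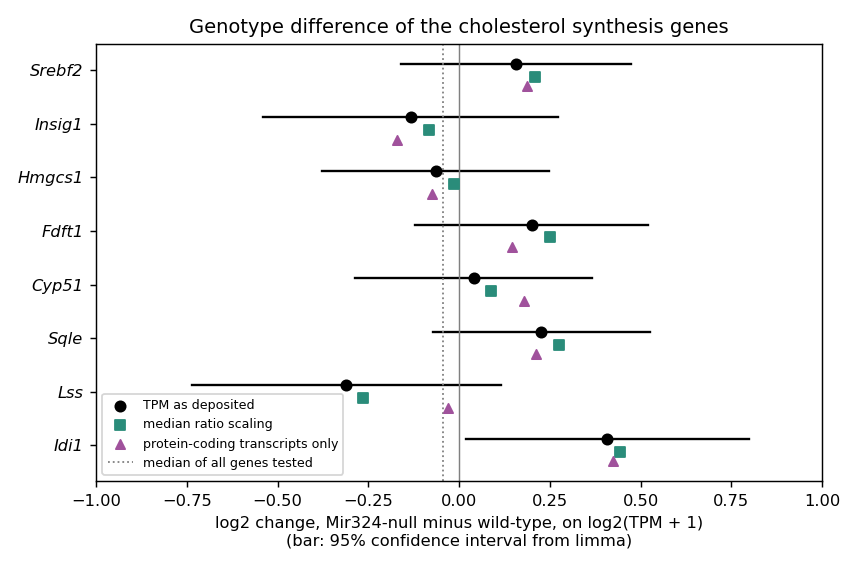
Log2 change of each member, Mir324-null minus wild-type, with its 95% confidence interval from limma (circles and bars), beside the change after median ratio scaling (squares) and with coding transcripts only (triangles); the dotted line is the median of all genes tested. The interval of Idi1 alone leaves out 0, from 0.018 to 0.80, and Lss moves from -0.31 to -0.030 when only coding transcripts are summed.

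The intervals of the other 7 members included 0. The 95% confidence interval ran from -0.16 to 0.47 for Srebf2, from -0.54 to 0.27 for Insig1, from -0.38 to 0.25 for Hmgcs1 and from -0.29 to 0.37 for Cyp51. It ran from -0.12 to 0.52 for Fdft1, from -0.072 to 0.52 for Sqle and from -0.74 to 0.11 for Lss. Summed over the 8 genes, the wild-type level was 105 ± 8.08 TPM and the null level 111 ± 20.9 TPM (SD, n = 5). Mir324-null replicates 1 and 2 had the highest sums, 129 and 133 TPM, and Mir324-null replicate 5 the lowest, 83.4 TPM.

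The members varied partly together from mouse to mouse. Of the 28 pairs, 23 had a positive correlation over the 10 libraries, with a median Pearson r of 0.315 (0.255 after median ratio scaling) and a range of -0.347 to 0.809. The permutation p of r, adjusted over the 28 pairs, was under 0.05 for 0 pairs, while 5 pairs had an unadjusted permutation p under 0.05, and 2 pairs after median ratio scaling. The libraries share their tissue makeup and a fixed TPM total, so a correlation here is a description.

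Srebf2 and its target gene Sqle had the highest correlation, with r = 0.809 and rho = 0.697 (permutation p = 0.00437 and 0.0305, the former 0.122 after Benjamini-Hochberg adjustment). Here and below, the 2 libraries left out are those farthest from the median of the gene named first, and not of the second. Without them, Mir324-null replicates 1 and 2 for this pair, r was 0.426, so it depended partly on them. It was 0.791 with each genotype's mean subtracted. With all 10 libraries r was 0.814 after median ratio scaling (permutation p = 0.0043, 0.0911 after adjustment). For Srebf2 and Hmgcs1, r was 0.745 and rho 0.685 (permutation p = 0.0127 and 0.0350, the former 0.132 after adjustment), and r was 0.790 without the 2 libraries farthest from the median of Srebf2 but 0.615 after median ratio scaling (permutation p = 0.058). Insig1 and Hmgcs1 gave r = 0.747 and rho = 0.685 (permutation p = 0.0182 and 0.0346, the former 0.132 after adjustment), and r was 0.749 without the 2 farthest libraries but 0.415 after median ratio scaling. For Sqle and Idi1, r was 0.722 and rho 0.758 (permutation p = 0.0189 and 0.0146, the former 0.132 after adjustment), with r = 0.735 without the 2 farthest. After median ratio scaling r was 0.780 for this pair (permutation p = 0.00651, 0.0911 after adjustment). For Insig1 and Lss, r was 0.627 and rho 0.479 (permutation p = 0.0490 and 0.166, the former 0.274 after adjustment), and r was 0.154 without the 2 farthest, so that relation also depended on them. With each genotype's mean subtracted, Srebf2 and Hmgcs1 had r = 0.855, the 1 pair of the 28 with an adjusted permutation p under 0.05. That permutation moved values across genotypes after the subtraction, which makes its p too small, and it used TPM as deposited only. Within a genotype there are too few mice for a correlation of its own.

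The gene whose pattern was most like that of the members was another enzyme of the same pathway. Each of 10326 further genes, all with a mean level of 5 TPM or more, was ranked by its Pearson correlation, over the 10 libraries, with the mean of the 8 standardized member profiles. The first was Fdps (ENSMUSG00000059743, chromosome 3, 89093588 to 89101959), which encodes farnesyl diphosphate synthase and acts between Idi1 and Fdft1, with r = 0.943. It was at 40.1, 31.2, 37.6, 36.9 and 41.7 TPM in wild-type and at 57.95, 51.9, 38.9, 41.4 and 27.95 TPM in null mice. As for Srebf2, Mir324-null replicates 1 and 2 were the highest and replicate 5 the lowest. Its means were 37.5 ± 4.00 and 43.6 ± 11.7 TPM (SD, n = 5), a change of 0.18 (SE 0.172, exact permutation p = 0.389, limma adjusted p = 0.773), which was 0.065 without Mir324-null replicate 1 and 0.32 without Mir324-null replicate 5. Fdps ranked first in 6 of the 10 rankings that left out a library, at rank 2 without wild-type replicate 1, at rank 3 without Mir324-null replicate 3 and at rank 4 without Mir324-null replicate 4. Without Mir324-null replicate 5 it was at rank 15, with r = 0.894. It was at rank 1 after median ratio scaling, at rank 4 with genotype means subtracted, where Ap3s1 came first, and at rank 2 with the member profile from coding transcripts, where Cnppd1 came first. The next genes in the ranking were Cnppd1 (r = 0.919), Mapkapk3 (r = 0.913), Dennd2d (r = 0.913) and Stag1 (r = 0.912), and the pathway gene after Fdps was Acly, at rank 33.

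**Figure D4:**
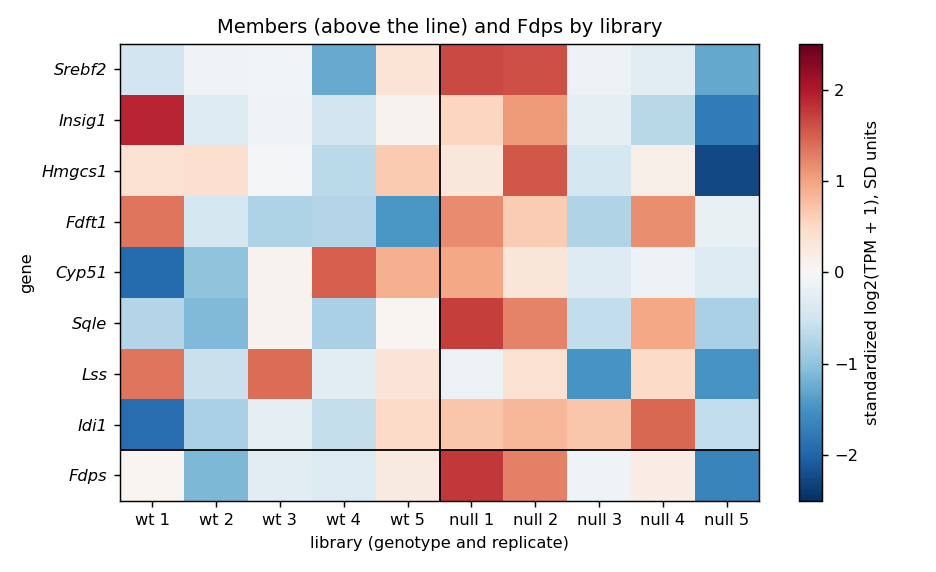
Standardized log2(TPM + 1) of the 8 members and of Fdps (rows) in the 10 libraries (columns), in SD units of each gene, red above and blue below its mean. Mir324-null replicates 1 and 2 are red for most genes and replicate 5 is blue for most, and Fdps has its highest values in the same 2 null libraries and its lowest in replicate 5.

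Marker lists of other cell types differed in how their mean log2(TPM + 1) went with the mean member profile over the 10 libraries, given here as a description. The 7 neutrophil markers had r = 0.747 and rho = 0.588, and the 8 B lineage markers went the opposite way, with r = -0.650 and rho = -0.539. For the 8 cell cycle genes r was 0.379. It was -0.428 for adipocyte, -0.311 for osteoclast, -0.238 for erythroid, -0.13 for osteoblast and osteocyte, and -0.067 for cartilage markers. Neutrophil markers summed to between 55632 and 109003 TPM among wild-type mice and between 54585 and 111430 TPM among null mice, and B lineage markers to between 373 and 478 TPM and between 207 and 436 TPM. The mean member profile had r = 0.462 with the median ratio size factor and -0.407 with the haemoglobin share, where the median over all genes was 0.482 and -0.406. Between genotypes, estimates were below 0 for all tested osteoblast and osteocyte (10), osteoclast (6), adipocyte (5), B lineage (8) and neutrophil (7) markers. They were below 0 for 6 of 7 cartilage markers and above 0 for all erythroid (7) and cell cycle (8) genes. The sizes differed, with median log2 changes of -1.055 for osteoclast, -0.90 for osteoblast and osteocyte and -0.67 for adipocyte markers. The medians were -0.66 for cartilage, -0.44 for B lineage and -0.075 for neutrophil markers, and 0.44 for erythroid and 0.29 for cell cycle genes. After median ratio scaling 4 of 7 neutrophil estimates were below 0. None had a limma adjusted p under 0.05, and 39.98% of all genes had estimates above 0. The part of these cells in the pattern, or in single genes below, was not tested.

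The rest of the cholesterol pathway gave no gene past the corrected test either. Of 64 further genes in 7 lists, 61 passed the filter, and limma with Benjamini-Hochberg adjustment gave 0 of them an adjusted p under 0.05, with a smallest adjusted p of 0.277. Estimates were above 0 for 30 and below 0 for 31 (33 and 28 after median ratio scaling), with a median log2 change of -0.0086. An unadjusted p under 0.05 was found for 5 genes higher and 6 lower, where the background over all genes was 4.28% higher and 7.3% lower. That split was 10 higher and 4 lower with TPM rescaled without haemoglobin genes, 6 and 5 after median ratio scaling and 8 and 7 after quantile normalization. The background moved as well, to 1228 genes higher and 591 lower without haemoglobin genes. It was 875 and 888 after median ratio scaling and 884 and 929 after quantile normalization. All changes in the next paragraphs are log2 changes of this kind, and none passed the correction.

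Of the 6 other enzymes of the mevalonate steps, 5 had estimates above 0 and 1 below, with a median of 0.092. As deposited 0 of the 6 had an unadjusted p under 0.05. Under each of median ratio scaling, quantile normalization and rescaling without haemoglobin genes 1 did, higher in null mice. Over all genes, those higher at that threshold rose as well, from 592 as deposited to 875, 884 and 1228 in the same order. Those lower went from 1011 to 888, 929 and 591. Mvd, mevalonate diphosphate decarboxylase, had the largest estimate, 0.21 (SE 0.190, exact permutation p = 0.349, limma adjusted p = 0.746), which was 0.082 without Mir324-null replicate 1.

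Among the 9 other enzymes after squalene, 6 estimates were above 0 and 3 below (8 and 1 after median ratio scaling), with a median of 0.071. Lbr, a sterol reductase that is also a nuclear envelope protein, had the highest level of the list, with 186 ± 44.2 and 232 ± 29.2 TPM (SD, n = 5) and a change of 0.34 (SE 0.164, exact permutation p = 0.0873, limma adjusted p = 0.452), which was 0.20 without wild-type replicate 1.

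In the list on processing and sensing by the SREBP system, 3 of 11 estimates were above 0 and 8 below, with a median of -0.088. Insig2, the close relative of Insig1, was at 49.7, 35.2, 32.8, 45.4 and 35.7 TPM in wild-type and at 24.6, 29.3, 39.2, 30.6 and 16.8 TPM in null mice. In 4 of 5 null mice it was below every wild-type mouse. The change was -0.52 (SE 0.199, exact permutation p = 0.0476, limma adjusted p = 0.366), and it ran from -0.65 to -0.35 when 1 library was left out.

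Of 8 tested genes of uptake and transport, 4 had estimates above 0 and 4 below. The lipoprotein receptor gene Vldlr had the largest, -0.74 (SE 0.186, exact permutation p = 0.0159, limma adjusted p = 0.283), from 7.48 ± 2.10 to 4.01 ± 0.846 TPM (SD, n = 5). Npc2, a lysosomal cholesterol carrier, gave -0.26 (exact permutation p = 0.0794, limma adjusted p = 0.427), and -0.17 without haemoglobin genes, where its unadjusted p was no longer under 0.05.

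Among 9 tested genes of the LXR pathway, esterification and efflux, 5 estimates were above 0 and 4 below. Lpcat3, a phospholipid-remodelling enzyme and target of LXR, averaged 42.9 ± 2.46 TPM against 53.9 ± 3.43 TPM in the null mice (SD, n = 5), with no overlap. The genotypes were without overlap in 1.94% of all genes. The change of Lpcat3 was 0.32 (SE 0.0794, exact permutation p = 0.00794, limma adjusted p = 0.277). Apoe, which carries cholesterol out of cells, was at 1140 ± 226 and 995 ± 137 TPM (SD, n = 5), a change of -0.19 (exact permutation p = 0.254, limma adjusted p = 0.659), which was -0.078 without wild-type replicate 2 and -0.095 without haemoglobin genes.

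The 10 genes of the fatty acid branch, which SREBP1 controls, had 5 estimates above 0 and 5 below. The stearoyl-CoA desaturase gene Scd1 had the largest, -0.98 (SE 0.312, exact permutation p = 0.0397, limma adjusted p = 0.319), from 68.8 ± 31.5 to 33.5 ± 13.5 TPM (SD, n = 5), and malic enzyme Me1 gave -0.62 (exact permutation p = 0.0159, limma adjusted p = 0.338). The desaturases Fads1 and Fads2 gave 0.27 and 0.26 (exact permutation p = 0.0238 and 0.0397, limma adjusted p = 0.372 and 0.425). Scd1 is also abundant in fat cells, whose 6 markers summed to between 322 and 543 TPM among wild-type mice and between 233 and 397 TPM among null mice, and their part in the Scd1 values was not tested. In the isoprenoid branches, 2 of 8 estimates were above 0 and 6 below. Both subunits of farnesyltransferase were among them, Fnta with -0.20 (exact permutation p = 0.00794, limma adjusted p = 0.350) and Fntb with 0.36 (exact permutation p = 0.0318, limma adjusted p = 0.354). For Fnta, too, the genotypes were without overlap. The change of Fnta was -0.15 after median ratio scaling and -0.11 without haemoglobin genes, and in both its unadjusted p was no longer under 0.05.

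**Figure D5:**
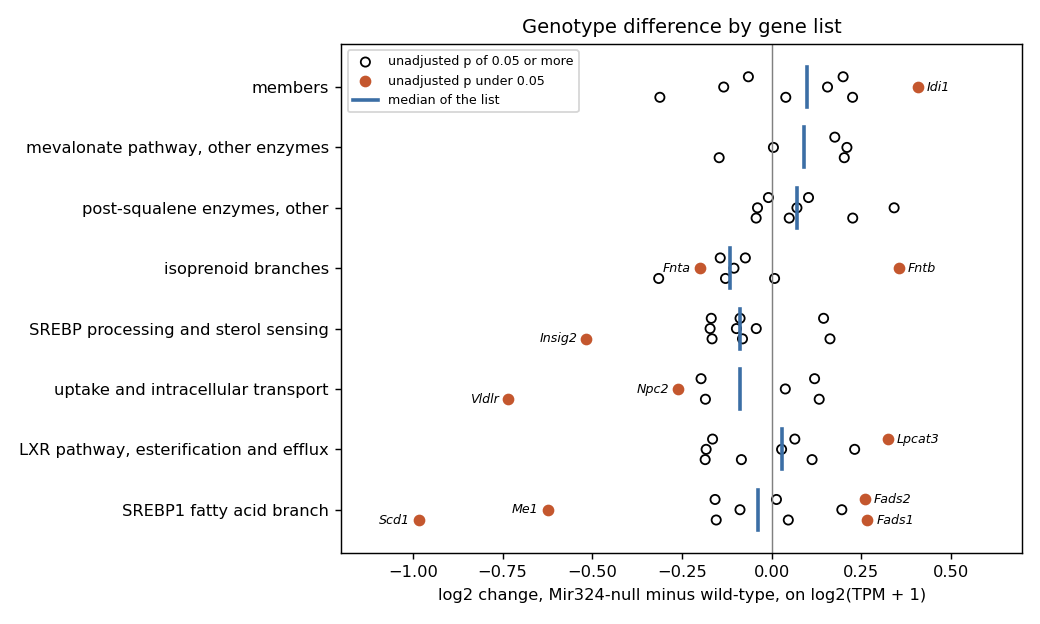
Log2 change, Mir324-null minus wild-type, of genes by list (points, filled where the unadjusted limma p is under 0.05; genes not reported here are not drawn), with the median over all tested genes of each list as a vertical line. The members lie between -0.31 and 0.41, and the widest list is the fatty acid branch, which reaches -0.98 at Scd1.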

How the data were processed

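Libraries were made from total RNA with a low-input kit, per the labels' protocols. Values were deposited by the authors as TPM per transcript, scaled to a fixed total within each library, and the submitters' processing notes name kallisto, DESeq2 and the build GRCh38, a human one, although the transcript identifiers are mouse Ensembl identifiers. The index used is not given in the sources used here. From the deposited TPM, gene sums were made with GENCODE M21: of 116912 transcripts 115440 matched by identifier without version, and the 1472 unmatched took from 0.275% to 0.356% of each library's TPM.

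Genes whose mean level reached 1 TPM were compared on log2(TPM + 1), with a pseudocount of 1, in limma 3.58.1 (R 4.3.3) with a mean-variance trend and Benjamini-Hochberg adjustment over 13841 genes. TPM is no count, so no count model was run. Single values used exact permutation tests, and correlations 100000 resamples (Python 3.11.15, scipy 1.17.1). The procedure was also run on simulated data, with genes drawn independently and known changes larger than those of the members. That run does not show how often changes of the members' size would be found. The 8 genes were taken by symbol without use of their measured values, but they and the lists were chosen with earlier results of these data known. Named were the 8 genes, from each list the gene with the highest level, that with the largest change and all with an unadjusted p under 0.05, and the 5 genes most like the mean profile; some genes of the lists are counted but not reported singly here. Alternatives were another pseudocount (0.1), other filters, median ratio scaling, quantile normalization, rescaling without haemoglobin genes, coding transcripts only, a replicate block and leaving out each library. Each library is 1 mouse, so n is the number of mice.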

Additional observations from a re-analysis of the deposited data

Results flagged for a closer look

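In 1 of 44 groups of 5 libraries, 1 library stood apart from the others by Dixon's test, where chance flags about 1 in 20 groups. Insig1 was at 26.8 TPM in wild-type replicate 1, and the next highest wild-type library was at 17.7 TPM. The gap was 0.759 of the range of the group, above the critical value of 0.71. Wild-type replicate 1 is also the library with the smallest haemoglobin share, and the part of that share in this value was not tested.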

How the results depend on the processing

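No member had an adjusted p under 0.05 in limma in any of the 18 alternatives. Srebf2, Insig1, Fdft1, Sqle, Lss and Idi1 kept their direction throughout. Hmgcs1 turned to 0.020 without haemoglobin genes and to 0.052 without Mir324-null replicate 5, and ran from -0.16 to 0.052 with 1 library left out. Cyp51 turned to -0.061 without wild-type replicate 1, -0.010 without wild-type replicate 2 and -0.0084 when Mir324-null replicate 1 was left out, and ran from -0.061 to 0.13 with 1 library left out. Members with an unadjusted p under 0.05 numbered 1 as reported, 0 with the filter at a mean of 5 TPM, which leaves Idi1 untested, 2 without haemoglobin genes and 0 to 2 with 1 library left out (2 without Mir324-null replicate 5). Over all genes, 0 passed an adjusted p of 0.05 as reported, against 1603 at an unadjusted p under 0.05, and 0 to 1 with 1 library left out. Genes higher at an unadjusted p under 0.05 numbered 592, 1228 without haemoglobin genes and 441 to 681 with 1 library left out. Those lower numbered 1011, 591 without haemoglobin genes and 614 to 1354 with 1 library left out, the lowest being 614 without wild-type replicate 1, then 629 and 671 without Mir324-null replicates 1 and 5. Pairs of members with an adjusted permutation p under 0.05 numbered 0, and 1 with genotype means subtracted, by a permutation that did not stay within genotypes. The r of Fdps was 0.892 after median ratio scaling, an alternative chosen after seeing the data. The causes were not tested.

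With the replicate block, 0 members had an unadjusted p under 0.05, and 459 genes were higher and 709 lower. Deviations of same-numbered mice had correlations of -0.107, -0.007, -0.144, 0.056 and 0.021. The highest correlation of each wild-type mouse with a null mouse of another number was 0.23, 0.057, 0.086, 0.08 and 0.13. The highest of several values tends to exceed a single one, so this cannot decide whether the numbers mark pairs. TPM keeps no depth, so what depth limits could not be measured.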
